A study of Rattus norvegicus with 34 samples.

Results

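The flavin-containing monooxygenases (FMOs) were followed through rat liver as 4 genes, Fmo1, Fmo2, Fmo4 and Fmo5, out of 12462 genes with a probe set annotated to a single symbol. They were found by symbol and had 6 of the 24946 probe sets, and of several probe sets of a gene the one of highest mean signal in the strain was followed. Fmo1, Fmo4 and Fmo5 were tested in both strains, where 8587 genes of Brown Norway rats and 9215 of F344 rats could be, and Fmo2 lay under the signal floor of 32, to which lower signals were set, on every array.

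FMOs are flavoproteins of the endoplasmic reticulum that use NADPH and oxygen to oxygenate soft nitrogen and sulfur atoms of amines, thioethers and other compounds, and they work without the reductase that serves cytochrome P450. FMO1 acts on a broad range of amines and sulfur compounds and can oxidise hypotaurine to taurine. FMO5 is a poor oxygenase of those substrates and carries out Baeyer-Villiger oxidation of ketones, FMO2 is the main form of the lung in many mammals, and the activity of FMO4 is little characterised.

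Livers of 34 male rats were measured, 1 array per animal. Brown Norway rats, housed individually, were 4, 12 or 24 months old, with 3 untreated controls and 3 rats killed 4 h after a gavage of toluene at 1 g/kg in corn oil at each age. The controls' label reads no treatment, so an effect of toluene and one of the oil or the gavage cannot be told apart. F344 rats were 6, 11, 18 or 24 months old, 4 at each age, were not dosed, and lived at their supplier until a week before necropsy.

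The labelled tissue was borne out by 7 hepatocyte markers, among them those for albumin and transthyretin, which lay above a signal of 32 on every array. Median signals of 35.6 to 38.3 in Brown Norway arrays differed from those of F344 arrays, 44.9 to 47.1, so signals were compared within a strain only, and no probe set's signal was set against another's. The 3' over 5' signal of GAPDH, a sign of RNA quality, lay between 0.774 and 0.944 for Brown Norway arrays and between 1.31 and 7.33 for F344 arrays. It was above 2.5 on 5 F344 arrays, 2 each at 6 and 11 months and 1 at 18 months, and on none at 24 months. In whole liver, fewer cells of a type and less RNA per cell cannot be told apart.

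The promoters of Fmo1 and Fmo5 are shown because these genes changed in opposite directions over the life of F344 rats. Each window holds 250 bases before and 50 after the annotated start, 5′ to 3′ on the gene's strand, from RefSeq on GRCr8. The Fmo1 window is chr13:77747617-77747916 on the minus strand, and its start is the outer edge of the annotated gene. The Fmo5 window is chr2:187910714-187911013 on the plus strand, and its start lies inside the annotated gene. Capitals mark every match to the motifs searched.
Fmo1: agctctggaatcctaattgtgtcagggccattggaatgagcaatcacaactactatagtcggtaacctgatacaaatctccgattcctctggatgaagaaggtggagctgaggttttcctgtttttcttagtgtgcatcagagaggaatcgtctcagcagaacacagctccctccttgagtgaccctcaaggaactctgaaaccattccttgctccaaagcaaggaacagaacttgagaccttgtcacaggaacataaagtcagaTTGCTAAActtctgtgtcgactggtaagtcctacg
Fmo5: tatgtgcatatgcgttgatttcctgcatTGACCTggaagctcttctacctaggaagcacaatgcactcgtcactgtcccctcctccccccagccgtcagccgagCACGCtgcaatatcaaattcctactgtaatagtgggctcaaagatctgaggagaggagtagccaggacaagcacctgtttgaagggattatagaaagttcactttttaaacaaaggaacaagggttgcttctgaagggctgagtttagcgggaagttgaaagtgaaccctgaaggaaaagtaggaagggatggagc
The 7 motifs were searched on both strands in 33469 promoters of this length. They were the HNF1 motif GTTAAT (in 7.45% of promoters), the nuclear receptor motif AGGTCA (16.2%), the FOXA core TGTTTNC (21.1%), the STAT5 site TTCNNNGAA (8.87%), the C/EBP site TTGCNNAA (10.6%), the AHR core GCGTG (29.7%) and the NRF2 core TGACNNNGC (12.1%). Fmo1 held a single match, to TTGCNNAA on the gene's strand, 16 bases after the start. Fmo5 held 2 matches, to AGGTCA and to GCGTG, both on the opposite strand, and they do not overlap. These matches are descriptions of the letters and not of bound sites. The table had no entry for Fmo4.

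Fmo1 signal fell late in the life of F344 rats, to less than its 6-month level on every array at 24 months. At 6 months the 4 arrays read 1077, 1002, 1327 and 1337 (mean 1186 ± 172 SD, n = 4). At 11 months they read 887, 1331, 1849 and 1629 (1424 ± 416, n = 4), and at 18 months 1678, 517, 1064 and 868 (1032 ± 487, n = 4). At 24 months they read 458, 432, 886 and 441 (554 ± 222, n = 4). The 11- and 18-month groups were widely spread and overlapped the 6-month group, whereas the 24-month arrays all lay under the lowest 6-month array. In order of mean level the ages ran 11, 6, 18 and 24 months, and neighbours in that order overlapped.

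The change of Fmo1 from 6 to 24 months was -1.16 on the log2 scale (SE 0.31, 95% interval -1.82 to -0.49), or 2.23-fold lower, with an adjusted p of 0.0326 (limma, Benjamini-Hochberg). From 11 to 24 months it was -1.38 (SE 0.31, adjusted p = 0.0182). There the groups met without overlapping, at 886.3 and 886.7, and 5.72% of all genes were lower without overlap. From 18 to 24 months it was -0.84 (SE 0.31, limma adjusted p = 0.251), where 1.79% of all genes passed. Over all 4 ages the limma F-test gave Fmo1 an adjusted p of 0.0438. Fmo1 and Fmo5 were the 2 of the 3 tested Fmo genes that passed from 6 to 24 months, where 7.4% of all genes did, and Fmo1 was the 1 of 3 from 11 to 24 months, where 4.93% did. Groups from 6 to 24 months were free of overlap for 8.81% of all genes upward and 6.53% downward.

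The call on Fmo1 from 6 to 24 months was not firm. It was lost when any 1 of 7 of the 8 arrays was left out (limma adjusted p from 0.052 to 0.0992, log2 change from -1.24 to -1.06) and was held without replicate 3 of 24 months, the array at 886 (-1.41, adjusted p = 0.0120). Without the 5 arrays of high GAPDH ratio the change was -1.14 with a limma adjusted p of 0.166. With no filter on low signals, which adds genes to the fit and to the adjustment, the SE was 0.35 and the limma adjusted p 0.0849. The change from 11 to 24 months lost its call on leaving out replicate 1, 2 or 4 of 24 months or replicate 3 of 11 months, with limma adjusted p from 0.0538 to 0.0675 and log2 changes from -1.31 to -1.24.

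**Figure D1:**
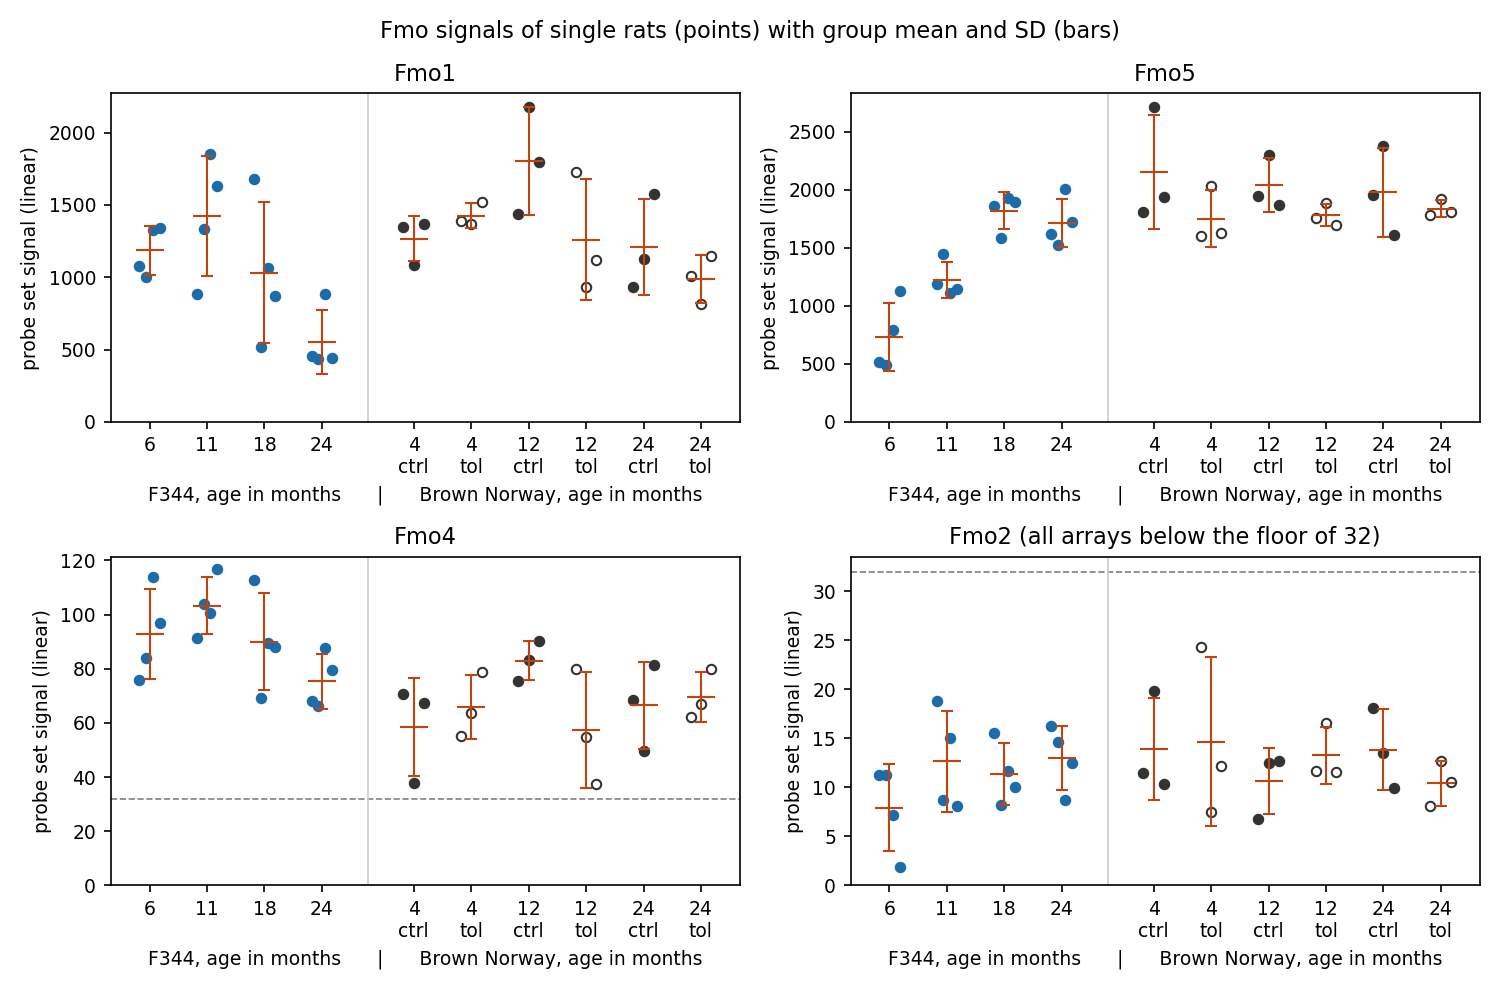
Linear signal of the followed probe set of Fmo1, Fmo5, Fmo4 and Fmo2 on every array, by strain, age in months and treatment (ctrl, control; tol, toluene); points are rats, bars the group mean ± SD, and dashed lines the floor of 32. The 24-month F344 arrays of Fmo1 read 432 to 886, under the 6-month arrays, and those of Fmo5 read 1524 to 2004, above them.

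Fmo5 signal moved the other way in F344 rats and rose earlier. At 6 months the arrays read 517, 493, 792 and 1127 (732 ± 296 SD, n = 4). At 11 months they read 1191, 1447, 1110 and 1146 (1223 ± 152, n = 4), so that 3 of the 4 lay above every 6-month array. The 18-month arrays read 1864, 1582, 1932 and 1895 (1818 ± 160, n = 4) and the 24-month arrays 1619, 1524, 2004 and 1724 (1718 ± 207, n = 4). Both older groups lay wholly above both younger ones and overlapped each other.

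From 6 to 24 months Fmo5 rose by 1.31 on the log2 scale (SE 0.20, 95% interval 0.87 to 1.74), or 2.47-fold, with a limma adjusted p of 0.000977. From 6 to 18 months it rose by 1.39 (SE 0.20), or 2.63-fold, with a limma adjusted p of 0.00402. It was the 1 of 3 tested Fmo genes to pass at 18 months, where 1.07% of all genes did and 4.24% lay without overlap upward. From 6 to 11 months its change was 0.82 (SE 0.20, 95% interval 0.38 to 1.25, limma adjusted p = 0.718), rank 13 of 9215 genes by p. No gene passed in that comparison (0%), and 3.87% had an unadjusted p under 0.05. From 11 months to 18 it was 0.58 (SE 0.20, limma adjusted p = 0.287, 0.293% of genes passing) and from 11 to 24 it was 0.49 (SE 0.20, limma adjusted p = 0.186). Both were without overlap, as 2.4% and 6.47% of all genes were upward. From 18 to 24 months it was -0.09 (SE 0.20, limma adjusted p = 0.939). The limma F-test over the 4 ages gave Fmo5 an adjusted p of 0.00148, with 6% of all genes passing.

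The rise of Fmo5 from 6 to 24 months passed in limma in all 8 fits that left out 1 array, with log2 changes from 1.15 to 1.54. Without the 5 arrays of high GAPDH ratio it was 1.20 (adjusted p = 0.0329), while the rise to 18 months was then 1.26 and no longer passed in limma (adjusted p = 0.0988).

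Fmo4 did not pass in any F344 comparison. At 6 months its arrays read 75.9, 84.0, 114 and 96.8 (92.7 ± 16.6 SD, n = 4) and at 11 months 91.4, 104, 101 and 117 (103 ± 10.6, n = 4). At 18 months they read 113, 69.2, 89.3 and 88.1 (89.9 ± 17.9, n = 4) and at 24 months 67.9, 66.1, 87.6 and 79.5 (75.3 ± 10.2, n = 4). The ages stood in the same order of mean as for Fmo1, 11, 6, 18 and 24 months, with neighbours overlapping. From 6 to 24 months the change was -0.29 (SE 0.16, limma adjusted p = 0.32). From 11 to 24 months it was -0.46 (SE 0.16, limma adjusted p = 0.107), and the 24-month arrays lay under every 11-month array, as for 5.72% of all genes. This last comparison passed in limma in 1 of 12 alternatives, with arrays weighted by quality (-0.54, adjusted p = 0.0224). The same alternative was the 1 of 13 in which Fmo1 passed from 18 to 24 months (-1.10, limma adjusted p = 0.0157). Over the alternatives all genes that passed numbered 277 to 1020 from 11 to 24 months, against 454 in the main fit. From 18 to 24 months they numbered 64 to 629, against 165.

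Fmo2 read under 32 on every array, from 1.91 to 18.8 on the 16 F344 and from 6.75 to 24.3 on the 18 Brown Norway arrays. It was not tested, and values under the floor have no order. The second Fmo4 probe set was above 32 on 1 of 18 Brown Norway arrays and on 0 of 16 F344 arrays.

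Fmo1 and Fmo4 varied together from array to array. Over the 16 F344 arrays their log2 signals had Pearson r = 0.877 (permutation p = 3e-05, adjusted 0.00018 over 6 relations) and Spearman rho = 0.835 (permutation p = 0.00012, adjusted 0.00072). The value of r was 0.877 again without the 2 arrays farthest from the median of Fmo1 (n = 14), and 0.806 among deviations from the group means. Over the 18 Brown Norway arrays r was 0.540 (permutation p = 0.0208, adjusted 0.0623) and rho 0.728 (permutation p = 0.00109, adjusted 0.00327). Without the 2 farthest arrays r was 0.593 (n = 16), and among deviations from the group means it was 0.599. The permutations shuffled arrays across age and treatment groups, so their p-values take in differences between groups. The r among deviations from the group means was not tested. At 18 months in F344 rats replicate 1 was the highest of its group for both genes and replicate 2 the lowest for both. In the GRCr8 order Fmo4 and Fmo1 are neighbours on chromosome 13 with 0 protein-coding genes between them, and so are Fmo1 and Fmo2. Fmo2 lay under the floor on every array, and Fmo5 is on chromosome 2. The part of gene position in these relations was not tested.

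**Figure D2:**
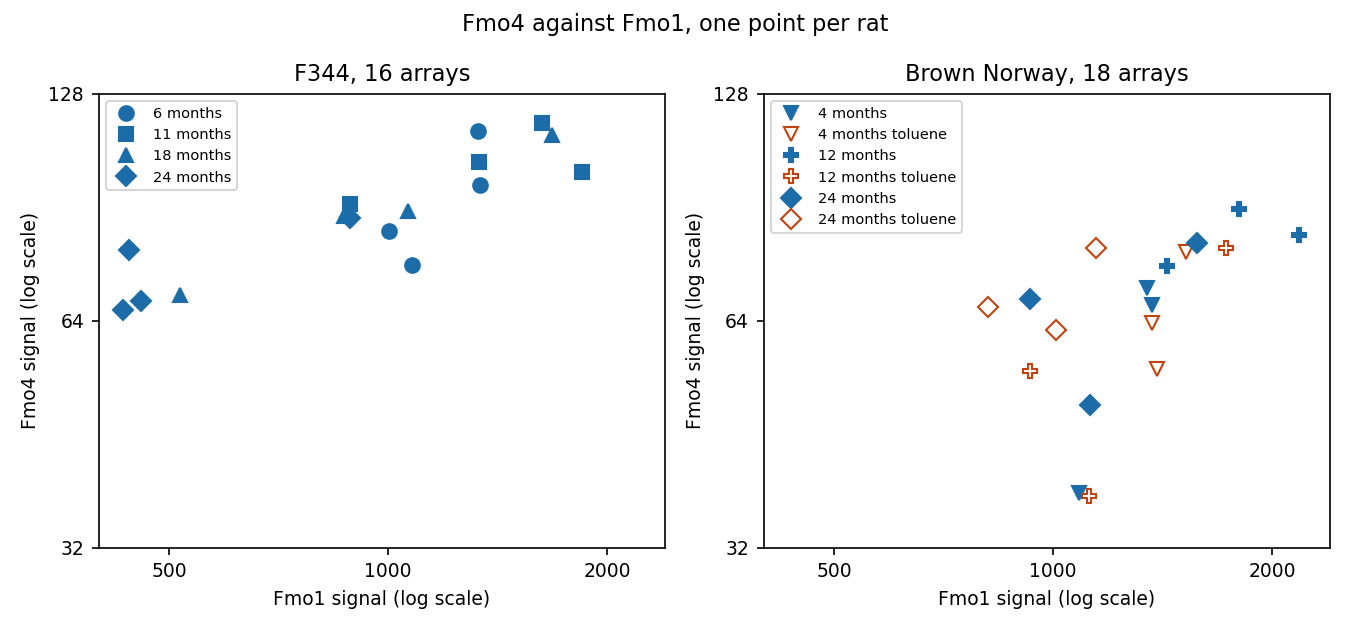
Fmo4 against Fmo1, signal of single arrays on log axes, with a marker shape per age, open markers for toluene, and F344 and Brown Norway rats in separate panels. In F344 rats the points lie along a rising line (r = 0.877 over 16 arrays), and in Brown Norway rats they scatter more widely (r = 0.540 over 18).

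After adjustment Fmo1 and Fmo4 passed by r and rho in F344 rats and by rho only in Brown Norway rats. No other pair passed by either. Fmo1 and Fmo5 had r = -0.29 in F344 (permutation p adjusted 0.403) and -0.10 in Brown Norway rats (permutation p adjusted 0.8). Fmo4 and Fmo5 had r = -0.35 in Brown Norway rats (permutation p adjusted 0.298) and -0.07 in F344 rats (permutation p adjusted 0.8). Among deviations from the group means Fmo4 and Fmo5 had r = 0.548 in F344 and -0.561 in Brown Norway rats, and Fmo1 and Fmo5 had r = 0.374 and -0.348. For both pairs the sign within groups differed between the strains. These values within groups were not tested, and neither pair passed over all arrays, so no turn of sign is read.

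The genes most like each Fmo gene across the arrays of a strain are described by r alone, and all share the arrays and their groups. In F344 rats Fmo1 was most like Dcxr (0.963), a reductase of dicarbonyl compounds and L-xylulose, then Ei24 (0.925) and the copper chaperone gene Atox1 (0.920), and Fmo4 was rank 13 of 9214. Fmo4 was most like Stau1 (0.884), which encodes a binder of double-stranded RNA, then Fmo1 (0.877) and Pnkd (0.860). Fmo5 was most like Cmtm7 (0.946), Fxyd2 (0.931), a regulator of the sodium pump, and Csf1r (0.898), the macrophage growth factor receptor and a marker of Kupffer cells.

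In Brown Norway rats other genes came first. Fmo1 was most like Txnl4b (0.796), Ap5m1 (0.791) and the complex I assembly gene Ndufaf1 (0.763), and Fmo4 was rank 195 of 8586. Fmo4 was most like Ppp1r21 (0.881), the Wnt transcription factor gene Tcf7l2 (0.879) and Stx7 (0.879), and Fmo1 was rank 570 of 8586. Fmo5 was most like Slc26a8 (0.866), the BMP signal gene Smad1 (0.811) and the CREB coactivator gene Crtc3 (0.809).

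Other genes that bear on FMO chemistry were counted between 6 and 24 months in F344 rats, where 7.4% of all genes passed and the median over all genes was -0.01. None of the 8 NADPH supply genes passed (median log2 change 0.03), nor did any of 4 genes of P450 electron supply (0.08) or of 10 transcription factors of drug metabolism (-0.17). Of 4 taurine genes 1 fell, Baat, which joins bile acids to taurine and glycine (4907 to 3703, -0.41, limma adjusted p = 0.0142, list median -0.33). Of 7 methionine sulfoxide repair genes 1 rose, Msrb3 (0.87, limma adjusted p = 0.0203), and 1 fell, Msrb1 (-0.49, adjusted p = 0.0322), with a median of -0.03. Of 23 other oxidases, esterases and oxidoreductases outside P450, 1 rose and 1 fell (median 0.01). These were the quinone reductase gene Nqo1 (136 to 253, 0.90, limma adjusted p = 0.0248) and the carboxylesterase gene Ces1d (3185 to 1687, -1.12, adjusted p = 0.0424). Of 7 genes of trimethylamine and choline handling 1 rose, the choline transporter Slc44a1 (0.80, limma adjusted p = 0.0043), with a median of -0.08.

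Genes known for sexually dimorphic expression in rat liver moved with Fmo1 in the oldest F344 rats. All 6 male-pattern genes fell from 6 to 24 months (median log2 change -4.52), led by the steroid dehydrogenase gene Hsd3b5 (2584 to 43.3). Of the 7 female-pattern genes, Cyp2c12 (332 to 6437), Prlr (37.1 to 1368) and Trim24 (44.0 to 674) rose. Akr1b7 rose as well, from under 32 on all 6-month arrays to 2183. The other 3, A1bg, Sult2a2 and Cux2, were also under 32 on all 6-month arrays and met the filter of 4 arrays only with those of 24 months, so that their higher signal there was set by the filter. At 18 months 0 of the 6 male-pattern genes (median -0.31) and 1 of the 7 female-pattern genes, Prlr, had passed, where 1.07% of all genes did. Fmo5 had risen by that age. The female-pattern genes above 32 on any 6-month array had then changed by 2.85 (Prlr), 0.78 (Trim24) and -0.25 (Cyp2c12). Prlr itself was above 32 on only 2 of the 6-month arrays. At 11 months, where no gene passed (0%), they stood at 1.33, 0.42 and 0.59. The rest were under 32 on all 6-month arrays and could not read lower later, so no mean over the list is read. The mean of the male-pattern genes stood at 0.00, -0.36, -0.67 and 0.02 from its 6-month mean on the 18-month arrays, where Fmo1 stood at 0.51, -1.19, -0.14 and -0.44, so the array of lowest Fmo1 was not that of the largest male-pattern shift. At 24 months it stood at -3.85, -4.76, -3.60 and -5.39, and the smallest shift was on replicate 3, which also had the highest Fmo1. The part of these genes in the changes of Fmo1 and Fmo5 was not tested.

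Kupffer cell and macrophage markers moved with Fmo5. The summed signal of 8 markers ran from 2805 to 3960 at 6 months, from 3438 to 5796 at 11, from 4594 to 6420 at 18 and from 4595 to 6902 at 24 months. Of the 8, 2 rose by 18 months (Cd68 and Csf1r, list median 0.69), where 1.07% of all genes passed. By 24 months 4 had risen (median 0.74, with Cd68 at 0.94, limma adjusted p = 0.0123), where 7.4% of all genes passed. All 8 were above 32 on every array. Of 4 T and natural killer cell markers, 3 were above 32 on 0 of the 6-month arrays, and all 4 were above it on every 24-month array, where the filter can favour a higher signal, and no count is read from them. Of 7 stellate cell and fibroblast markers 1 rose, Dcn (1.73, limma adjusted p = 0.018). Against the 7.4% of all genes, no marker passed among 7 of hepatocytes (median 0.00), 6 of endothelium, 2 of bile duct and 1 of B and plasma cells. The part of these cells in the rise of Fmo5 was not tested.

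**Figure D3:**
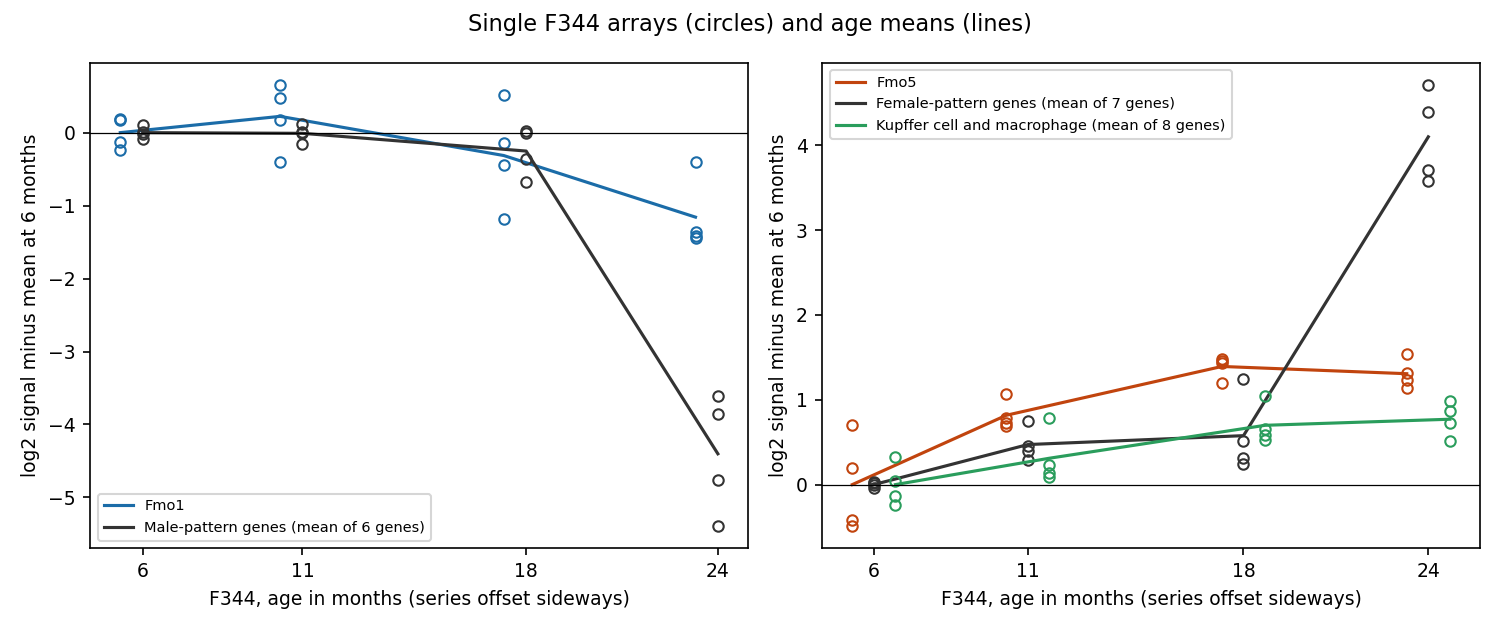
F344 arrays by age in months, as log2 signal minus the 6-month mean; circles are arrays, lines join age means, and series are offset sideways. On the left Fmo1 is drawn with the mean of 6 male-pattern genes, and on the right Fmo5 with the means of 7 female-pattern genes and of 8 Kupffer cell markers. Fmo5 had risen by 1.39 at 18 months, and the male-pattern mean stood farthest from 0 at 24 months. The female-pattern mean holds genes that were under 32 on all 6-month arrays. Some of these met the filter only with the 24-month arrays, so the height of that mean is not read.

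In Brown Norway rats no Fmo gene passed in any comparison of ages. All genes passed there in shares of 0% (4 to 12 months, in controls, dosed rats and both averaged), 0.245%, 0.268% and 0.85% (4 to 24 months) and 0.0233% and 0.0932% (12 to 24 months, controls and dosed). The limma F-test over the 3 ages passed 0.326% of genes and none of the Fmo genes. Fmo1 read 1344, 1086 and 1368 in 4-month controls (1266 ± 156 SD, n = 3), 1435, 2178 and 1799 in 12-month controls (1804 ± 372, n = 3) and 931, 1123 and 1579 in 24-month controls (1211 ± 333, n = 3). All 12-month controls lay above all 4-month controls, and the 24-month controls overlapped both. From 4 to 12 months the change was 0.50 (SE 0.23, limma adjusted p = 0.961), and Fmo4 likewise stood higher without overlap (0.55, SE 0.27, limma adjusted p = 0.961). No gene passed there (0%), 3.89% had an unadjusted p under 0.05, and 4.17% were higher without overlap. From 4 to 24 months Fmo1 changed by -0.09 (95% interval -0.59 to 0.40, limma adjusted p = 0.949).

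Fmo5 read 1812, 2717 and 1936 in 4-month controls (2155 ± 491 SD, n = 3), 1951, 2303 and 1870 in 12-month controls (2042 ± 230, n = 3) and 1955, 2375 and 1612 in 24-month controls (1981 ± 382, n = 3). These groups all overlapped. From 4 to 24 months the change was -0.12 (95% interval -0.47 to 0.24, limma adjusted p = 0.88), and averaged over controls and dosed rats it was -0.02 (95% interval -0.27 to 0.23). Fmo4 read 70.6, 37.8 and 67.2 in 4-month controls (58.5 ± 18.0, n = 3), 75.6, 83.1 and 90.1 in 12-month controls (82.9 ± 7.26, n = 3) and 68.4, 49.5 and 81.2 in 24-month controls (66.4 ± 15.9, n = 3).

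Dosed rats gave a separate estimate of age. Their Fmo1 was lower at 24 than at 4 months without overlap (-0.54, SE 0.23, limma adjusted p = 0.845), as in 6.78% of all genes, and Fmo5 differed by 0.07. Averaged over both arms the Fmo1 change was -0.32 (95% interval -0.67 to 0.03, limma adjusted p = 0.536). No gene of the 9 pathway and sex-pattern lists passed from 4 to 24 months in the controls, and the male-pattern median was -0.53. Kupffer cell markers were summed to 1932 to 2414 in 4-month and 3752 to 7460 in 24-month controls. Of the 8 markers 2 passed in the controls, where 0.245% of all genes did, and Fmo5 did not pass. In dosed rats the sums overlapped, at 2006 to 3114 at 4 months and 2314 to 3620 at 24 months.

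The effect of old age on Fmo5 differed between the strains. Its change from 6 to 24 months in F344 rats exceeded that from 4 to 24 months in Brown Norway controls by 1.42 on the log2 scale (SE 0.26, 95% interval 0.86 to 1.98, adjusted p = 0.042 from the limma estimates). It was 1 of 3 Fmo genes to pass, where 0.188% of 7964 genes did. The corresponding differences were -1.07 for Fmo1 (SE 0.39, limma adjusted p = 0.48) and -0.50 for Fmo4 (limma adjusted p = 0.799). The young groups differed in age, and the strains in housing, median array signal and GAPDH ratio, so strain cannot be told apart from these. The Fmo5 difference kept its sign in every alternative but lost its call in 7 of 14 changes of processing and in 10 of 14 fits that left out 1 array (limma adjusted p from 0.0534 to 0.0933, differences from 1.24 to 1.49). These left out any of the 24-month F344 arrays, replicate 1 or 2 of 6-month F344 rats, replicate 2 or 3 of the 4-month or replicate 1 or 3 of the 24-month Brown Norway controls.

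**Figure D4:**
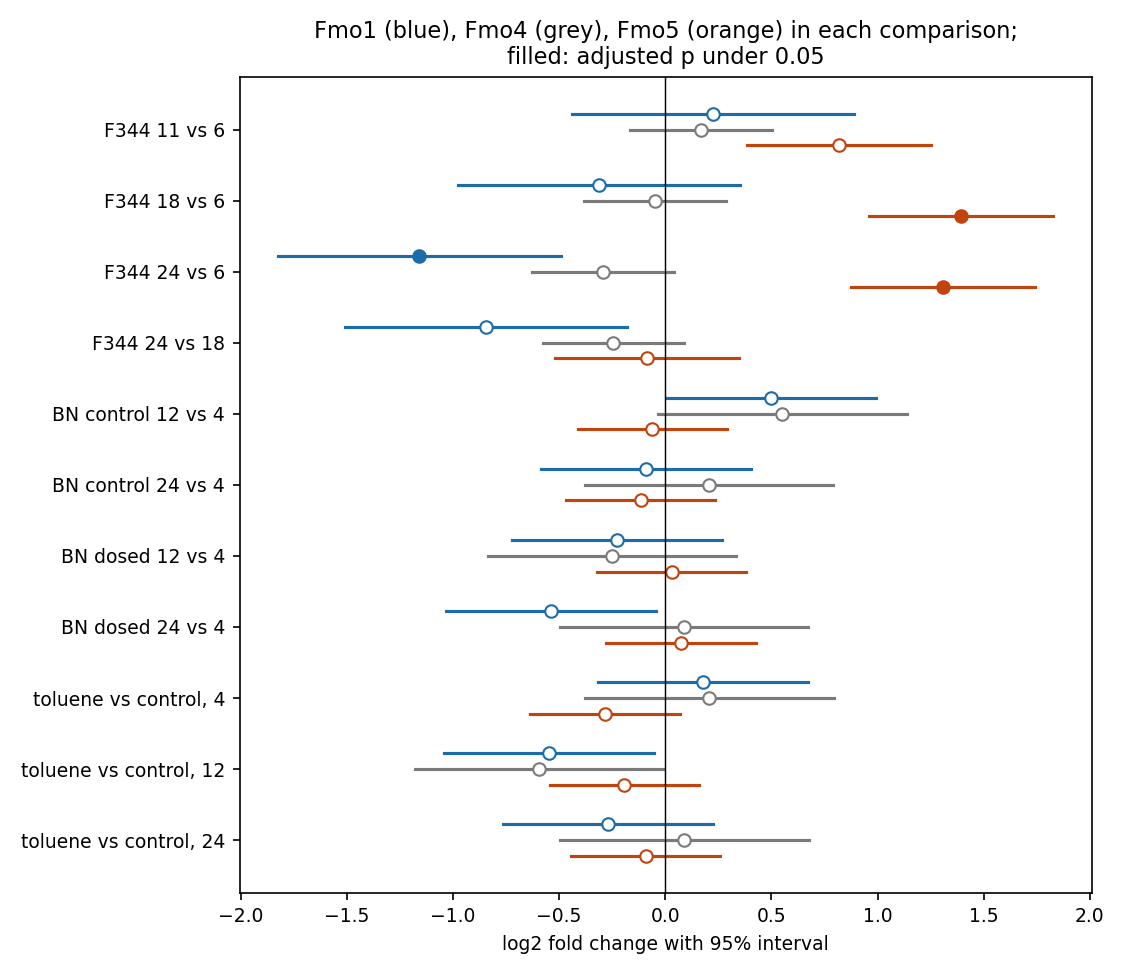
Log2 changes of Fmo1, Fmo4 and Fmo5 with 95% intervals (bars) for 4 comparisons of age in F344 rats and, in Brown Norway (BN) rats, for ages in controls and in dosed rats and for toluene at each age in months; filled points passed at an adjusted p under 0.05. The filled points are Fmo5 at 18 and at 24 against 6 months and Fmo1 at 24 against 6 months, all in F344 rats.

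No Fmo gene passed under toluene at any age. Dosed rats read 1388, 1366 and 1522 for Fmo1 at 4 months (1426 ± 84.5 SD, n = 3), 1728, 930 and 1122 at 12 months (1260 ± 416, n = 3) and 1010, 814 and 1144 at 24 months (989 ± 166, n = 3). Dosed and control arrays overlapped at each age, although 2 of the 3 dosed 12-month rats lay under all 3 controls. The log2 differences were 0.18, -0.55 and -0.27 at 4, 12 and 24 months. At 12 months the limma adjusted p was 0.923, the unadjusted p lay under 0.05 as for 4.6% of all genes, and 0.0349% of all genes passed. At 4 and 24 months 0.0233% and 0.0582% passed. The effect at 12 months differed from that at 4 by -0.72 (limma adjusted p = 0.977), with 0% of genes passing for that difference and 0.0116% for 24 against 4 months.

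Fmo4 likewise had its largest toluene difference at 12 months, within the spread. Its dosed arrays read 55.3, 63.5 and 78.8 at 4 months (65.9 ± 12.0 SD, n = 3), 80.0, 54.9 and 37.5 at 12 months (57.4 ± 21.4, n = 3) and 62.2, 66.8 and 79.9 at 24 months (69.6 ± 9.19, n = 3). All 3 ages overlapped their controls. The 12-month difference was -0.59 (SE 0.27, limma adjusted p = 0.923), and the others were 0.21 and 0.09.

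Fmo5 stood lower in dosed rats by its means at each age, within the spread. Dosed arrays read 1598, 2034 and 1628 at 4 months (1753 ± 243 SD, n = 3), 1757, 1885 and 1700 at 12 months (1781 ± 94.8, n = 3) and 1783, 1919 and 1806 at 24 months (1836 ± 72.7, n = 3). Each group overlapped its controls. The differences were -0.28, -0.19 and -0.09, and their average was -0.19 (SE 0.10, 95% interval -0.39 to 0.01, limma adjusted p = 0.933). The average was -0.21 for Fmo1 (95% interval -0.50 to 0.07) and -0.10 for Fmo4 (95% interval -0.44 to 0.24), and 0.0699% of all genes passed.

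In the order of mean signal over the 6 Brown Norway groups, 12-month controls stood first for Fmo1 and Fmo4 and 4-month controls for Fmo5. The last places were held by 24-month dosed rats for Fmo1, 12-month dosed rats for Fmo4 and 4-month dosed rats for Fmo5. Neighbours in each order overlapped for all 3 genes. The transcription factor list gave the 1 gene of the pathway lists that passed under toluene, the aryl hydrocarbon receptor gene Ahr. It rose by 0.75 on the log2 scale averaged over the ages (SE 0.12, or 1.69-fold, limma adjusted p = 0.0289). The 8 Kupffer cell markers had 0 passing and a median of -0.34 under toluene.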

How the data were processed

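RNA of 1 liver per rat was measured on Affymetrix rat arrays, and the p-values rest on separate animals, 3 or 4 per group, whose number limits the precision. The deposited values are linear intensity values per probe set, and the submitters' processing notes name MAS5 and RMA with no version, role or order. Of 24946 probe sets 17589 have 1 symbol and 393 several. Signals under 32 were set to 32 and log2 was taken; genes were tested if 3 or more Brown Norway arrays, or 4 or more F344 arrays, lay above 32. Effects came from limma 3.58.1 in R 4.3.3, 1 mean per group and 1 fit per strain, with Benjamini-Hochberg adjustment over all genes tested and a threshold of 0.05. Strain effects were compared through their standard errors. The code was tested on simulated data. The Fmo genes, the gene lists and the alternatives were chosen with earlier results of these data known. Besides the Fmo genes, up to 3 members per list of smallest adjusted p and the 3 most alike genes by r are named; Prlr and the cell markers were named after their values were seen. Alternatives changed the floor, filter, scaling, probe set rule, array weights and arrays included.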

Additional observations from a re-analysis of the deposited data

Results flagged for a closer look

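Fmo1 in 24-month F344 rats had 1 array at 886 beside 432, 441 and 458. Its gap to the next array, divided by the range of the group, was 0.944, above the 95% critical value of Dixon's test. Such a test picks out about 1 in 20 groups by chance.

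The change of Fmo5 with old age differed between the strains by 1.42 on the log2 scale, higher in F344 than in Brown Norway rats (limma estimates, adjusted p = 0.042).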

How the results depend on the processing

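The rise of Fmo5 from 6 to 24 months in F344 rats kept its direction and its call in 13 of 13 alternatives (1.20 to 1.37) and on leaving out each array (1.15 to 1.54). The other calls were less firm, and the cause was not tested. Fmo1 from 6 to 24 months lost its call at a floor of 8 (-1.16, limma adjusted p = 0.0588), with no filter on low signals (-1.16, 0.0849) and without the arrays of GAPDH ratio above 2.5 (-1.14, 0.166), and leaving out 1 array gave -1.41 to -1.06. From 11 to 24 months it lost it with no filter (-1.38, limma adjusted p = 0.0554) and without those arrays (-1.72, 0.0576), and leaving out 1 array gave -1.63 to -1.24. Fmo5 at 18 against 6 months was 1.26 without those arrays (limma adjusted p = 0.0988) and 1.23 to 1.63 on leaving out 1 array.

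The strain difference of Fmo5 lost its call in 7 of 14 alternatives. These were every probe set on its own (1.42, t-test on the limma estimates, adjusted p = 0.0508), a floor of 8 (1.42, 0.0873) and no filter (1.42, 0.0747). Further ones were the GAPDH ratio as a covariate (1.44, 0.0579) and fits of only the groups compared (1.42, 0.833). The last were no arrays of high GAPDH ratio (1.31, 0.352) and dosed in place of control Brown Norway rats (1.23, 0.0539). Leaving out 1 array gave 1.24 to 1.66.

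Signs that turned were those of effects that passed nowhere. With dosed in place of control rats Fmo5 changed by 0.075 from 4 to 24, 0.030 from 4 to 12 and 0.045 from 12 to 24 months, Fmo1 by -0.23 and Fmo4 by -0.25 from 4 to 12, and Fmo4 by 0.34 from 12 to 24 months. Array weights gave Fmo5 0.11 from 4 to 12 months in controls, 0.019 from 4 to 24 months averaged, and -0.033 for the toluene effect at 12 minus 4 months, and quantile scaling gave 0.0062 for the averaged change. Leaving out 1 array turned the sign in these ranges: in F344 rats Fmo4 at 18 against 6 months, -0.17 to 0.070. In Brown Norway controls from 4 to 24 months the ranges were -0.30 to 0.080 for Fmo1, -0.083 to 0.40 for Fmo4 and -0.26 to 0.062 for Fmo5, and for Fmo5 -0.17 to 0.12 from 4 to 12 months and -0.20 to 0.084 from 12 to 24. Averaged over both arms Fmo5 from 4 to 24 months ranged from -0.091 to 0.069. Under toluene the ranges were -0.080 to 0.37 for Fmo4 at 4 months, -0.11 to 0.25 for Fmo4 and -0.23 to 0.048 for Fmo5 at 24 months, and -0.088 to 0.20 for Fmo5 at 12 minus 4 months.

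Counts of all genes that passed moved by more than 1.5 times. From 6 to 24 months 682 became 407 to 1153 over the alternatives, from 6 to 18 months 99 became 30 to 430, from 11 to 24 months 454 became 277 to 1020, and for the strain difference 15 became 0 to 34. Leaving out 1 array gave 392 to 645, 23 to 206, 183 to 530 and 9 to 28 in these, 69 to 251 in place of 165 from 18 to 24 months, 0 to 81 in place of 27 from 11 to 18, and in Brown Norway rats from 4 to 24 months 0 to 137 in place of 21 (controls) and 25 to 141 in place of 73 (averaged). The shares of all genes given beside the Fmo counts rest on these counts. The higher floor tried left Fmo4 above it on too few arrays to be tested. Probe sets near the floor, as Fmo4 is, have little signal over background, and a missed call there does not show that levels were alike. No paired analysis was possible because the animals' numbers are not shared between groups.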
